A study of Mus musculus with 46 samples.

Results

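The 6 receptor genes described here were Pth1r, Vdr, Nr3c1, Nr3c2, Esr1 and Ghr, taken by symbol from the 29871 gene rows of the deposited table and read over all 46 cells. All 6 passed the filter on low values, a CPM (reads per 1000000 reads) of at least 1 in at least 5 cells, which left 11447 genes. The cells came from the cochlea of C57BL/6 mice at postnatal day 10, genotype Dio2creERt2:Ai6, in which an inducible Cre recombinase is driven by Dio2 and Ai6 is a fluorescent reporter. Dio2, the type 2 iodothyronine deiodinase, turns thyroxine into its active form. The mice were heterozygous for the Dio2ERt2 allele, all cells share that genotype, and no wild-type or non-fluorescent cells were analysed here. Such a label can persist after the driver gene falls silent, and the tamoxifen schedule is not given in the sources used here. Cells were released with papain, and fluorescent ones were picked singly by suction pipette under a microscope. The labels name no animal, so the 46 cells count as 1 sample: no test was made across cells, and each spread below is over cells.

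Cells were split by marker genes that are not among the receptors. Ibsp-high cells (Ibsp, bone sialoprotein, at 1000 CPM or more) numbered 12, Otos-high cells (Otos, otospiralin of cochlear fibrocytes, at 1000 CPM or more) numbered 9, C1qb-high cells (C1qb, a complement subunit of macrophages, at 500 CPM or more) numbered 4, and 21 cells remained. The lowest Otos-high cell, cell 31, had 1213 CPM of Otos, and the highest Ibsp and C1qb levels outside their classes were 107 CPM in cell 42 and 148 CPM in cell 22. Leaving out the gene that sets each class, 8 of 8 other osteoblast markers reached 100 CPM in at least 50% of the Ibsp-high cells, 7 of 7 other fibrocyte markers did in the Otos-high cells, and 6 of 6 other macrophage markers did in the C1qb-high cells. The Otos-high cells also had 4 of 5 chondrocyte and 4 of 6 general fibroblast markers at that level. The remaining cells, which share no class gene, had 4 of 8 fibrocyte, 3 of 5 chondrocyte and 3 of 6 general fibroblast markers at it. Fibrocyte markers were also present in Ibsp-high cells, where 3 of 8 reached it, and their summed level was 1689 to 36238 CPM. Summed macrophage markers, C1qb included, had a median of 17632 CPM in C1qb-high cells, against 5.28 CPM in Ibsp-high, 3.12 CPM in Otos-high and 3.47 CPM in remaining cells. No endothelial, pericyte, melanocyte, glial or epithelial marker reached 100 CPM in at least 50% of the cells of any class, although single cells had summed melanocyte markers of up to 2096 CPM (Otos-high) and glial markers of up to 1002 CPM (C1qb-high). Reads in listed genes ran from 2522853 to 10350249 per cell, with medians of 4507834 in Ibsp-high, 5081203 in Otos-high, 4331867.5 in C1qb-high and 5333920 in remaining cells. The Ibsp-high cells were cells 1 to 12 and the C1qb-high cells were cells 43 to 46, so class and place in the cell numbering cannot be told apart for them.

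These genes code for the receiving end of endocrine signals that act on bone and connective tissue. PTH1R is a G protein-coupled receptor at the cell surface that answers parathyroid hormone and its related peptide, mainly through Gs and cyclic AMP. VDR, the glucocorticoid receptor (Nr3c1), the mineralocorticoid receptor (Nr3c2) and oestrogen receptor alpha (Esr1) are nuclear receptors that bind DNA and change transcription. GHR is a cytokine receptor that signals through JAK2 and STAT5. In bone, osteoblasts and osteocytes carry PTH1R and VDR, through which calcium-regulating hormones act on matrix mineralization and on osteoclast recruitment. A messenger RNA shows only that a cell could make the receptor: neither receptor protein nor hormone response was measured.

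On GRCm38.p6, Pth1r (gene ID 19228) lies on chromosome 9 at 110722085 to 110747145, minus strand, and Vdr (22337) on chromosome 15 at 97854427 to 97908296, minus strand. Nr3c2 (110784) lies on chromosome 8 at 76898083 to 77245012, plus strand. Esr1 (13982) lies on chromosome 10 at 4611989 to 5005633, plus strand, and Ghr (14600) on chromosome 15 at 3317755 to 3583352, minus strand. Exons of Pth1r overlap those of Myl3 on the opposite strand over 95 of 2925 bases, and exons of Nr3c2 overlap Gm10649 over 247 of 6474 bases. No source used here says whether the counting used strand. Myl3 reached at most 29.3 CPM and Gm10649 at most 21.04 CPM in any cell.

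The promoter windows of Pth1r and Vdr are shown because these were the receptor genes that were higher in the Ibsp-high cells. Each is 300 bases around a RefSeq start site, GRCm38.p6, minus strand, 5′ to 3′; capitals mark the GC box, GGGCGG or its reverse complement CCGCCC.
Pth1r start site 1, chr9:110747096-110747395: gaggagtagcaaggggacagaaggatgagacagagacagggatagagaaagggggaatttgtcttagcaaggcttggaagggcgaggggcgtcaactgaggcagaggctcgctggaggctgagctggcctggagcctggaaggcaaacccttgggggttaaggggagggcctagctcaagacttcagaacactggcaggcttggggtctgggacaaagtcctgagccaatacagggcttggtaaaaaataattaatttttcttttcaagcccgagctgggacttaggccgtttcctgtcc
Pth1r start site 2, chr9:110743637-110743936: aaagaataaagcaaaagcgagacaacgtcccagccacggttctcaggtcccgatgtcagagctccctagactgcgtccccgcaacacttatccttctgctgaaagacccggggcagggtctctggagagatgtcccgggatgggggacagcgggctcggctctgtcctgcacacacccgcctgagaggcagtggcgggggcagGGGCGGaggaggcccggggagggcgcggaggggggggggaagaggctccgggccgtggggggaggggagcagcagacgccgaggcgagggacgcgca
Pth1r start site 3, chr9:110742561-110742860: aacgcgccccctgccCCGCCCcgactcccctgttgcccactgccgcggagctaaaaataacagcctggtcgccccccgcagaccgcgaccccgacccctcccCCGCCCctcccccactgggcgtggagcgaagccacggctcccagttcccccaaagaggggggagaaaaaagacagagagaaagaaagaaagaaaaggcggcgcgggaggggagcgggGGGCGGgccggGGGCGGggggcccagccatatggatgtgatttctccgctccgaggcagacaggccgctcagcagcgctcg
Vdr start site 1, chr15:97908247-97908546: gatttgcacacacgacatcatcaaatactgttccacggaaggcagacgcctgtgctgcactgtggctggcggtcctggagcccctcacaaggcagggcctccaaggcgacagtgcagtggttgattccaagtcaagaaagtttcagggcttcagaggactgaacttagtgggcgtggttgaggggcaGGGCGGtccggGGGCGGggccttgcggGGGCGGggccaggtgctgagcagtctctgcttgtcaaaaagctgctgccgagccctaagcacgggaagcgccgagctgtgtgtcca

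The Pth1r windows held 0, 1 and 4 GC boxes, with GC contents of 54.3%, 68.0% and 69.3%, and the Vdr window held 3, with a GC content of 61.3%. A GC box is present in 35.7% of all 32851 windows of this length. The RUNX core TGTGGT (16.8% of windows) and the vitamin D half-site AGGTCA (16.3% of windows) were searched on both strands and their letters were not in these 4 windows. The deposited values are sums per gene, so they do not tell the 3 start sites of Pth1r apart.

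Pth1r was high in every Ibsp-high cell and had a spread from background to 290 CPM elsewhere. It ran from 363 to 3713 CPM in Ibsp-high cells, with a median of 1378 CPM, against 0.881 to 290 CPM and a median of 2.14 CPM in remaining cells. The groups did not overlap. Counting a gene as detected at 10 CPM or more, Pth1r was detected in 12 of 12 Ibsp-high cells, 3 of 9 Otos-high cells, 0 of 4 C1qb-high cells and 10 of 21 remaining cells. The exact 95% intervals of those shares are 73.5 to 100%, 7.49 to 70.1%, 0 to 60.2% and 25.7 to 70.2%; they cover counting error only. The Otos-high cells with Pth1r were cell 31 at 170 CPM, cell 25 at 56.5 CPM and cell 26 at 30.9 CPM. The C1qb-high cells had 1.0 to 2.2 CPM, which is the level of the other cells counted as without it: no cell fell between 2.16 and 30.9 CPM.

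**Figure D1:**
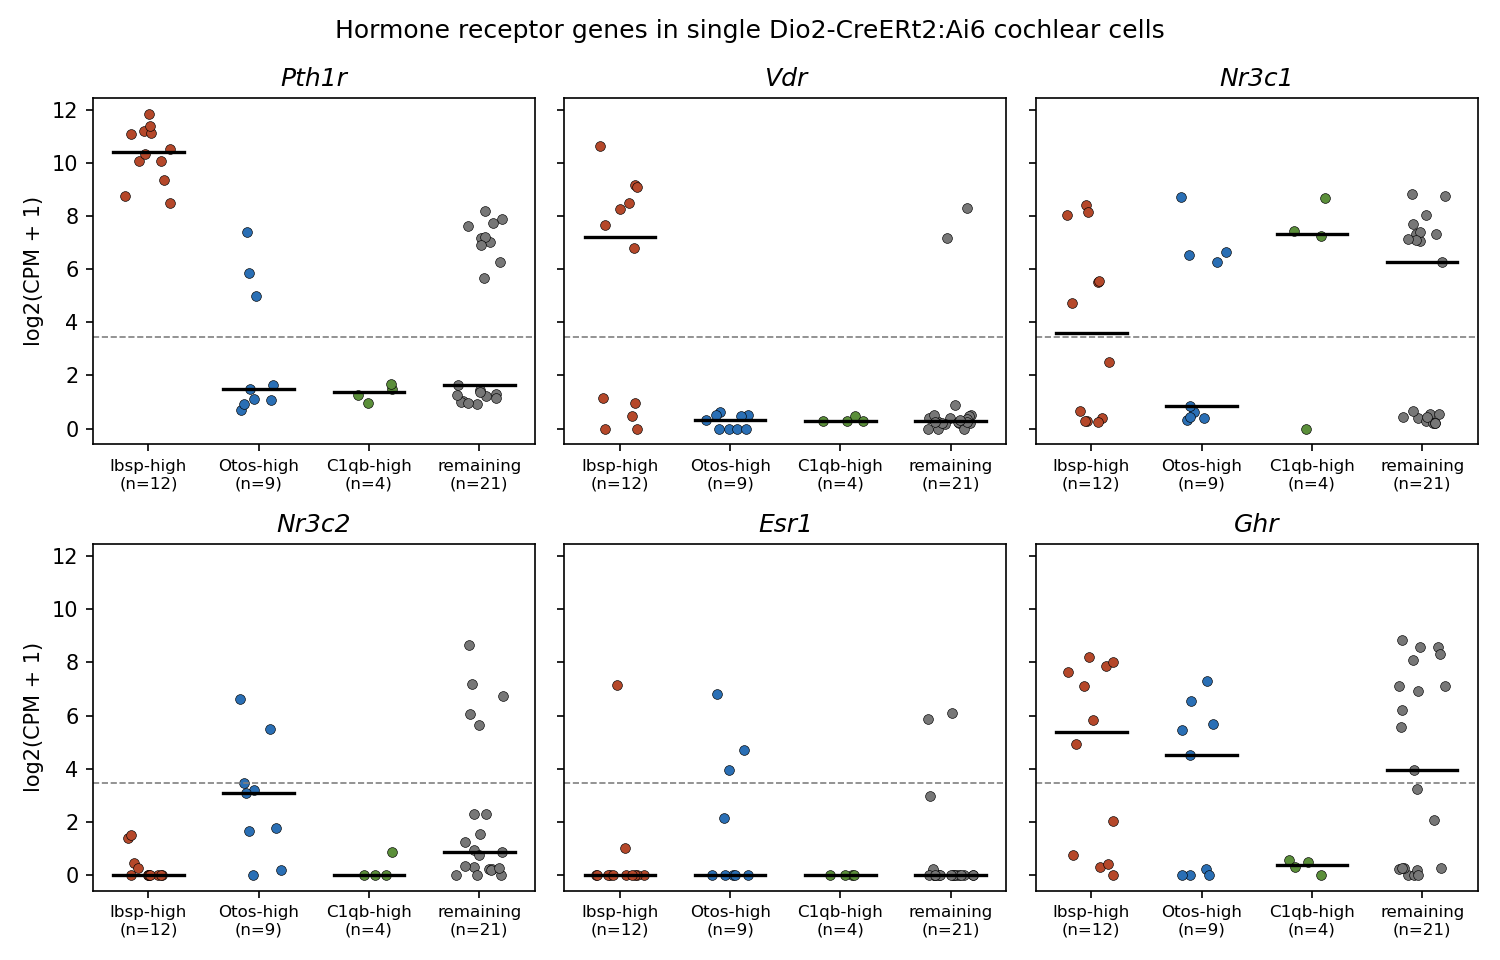
Level of each receptor gene in every cell, on a log2(CPM + 1) scale, by marker class from left to right; each point is a cell, the bar is the class median and the dashed line is the detection limit of 10 CPM. Pth1r is at 363 CPM or more in all 12 Ibsp-high cells, Vdr falls into cells near 0 and cells at 110 CPM or more, and the other 4 genes are scattered through several classes.

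Summed over cells, Pth1r was 1666 CPM (exact 95% Poisson interval 1656 to 1677) in Ibsp-high cells and 72.3 CPM (70.9 to 73.8) in remaining cells. On the log2(CPM + 1) scale, which understates the change of low genes, Pth1r averaged 10.36 ± 1.06 in Ibsp-high (SD, 12 cells) and 4.05 ± 3.10 in remaining cells (SD, 21 cells), a difference of 6.31. It averaged 2.80 ± 2.56 in Otos-high and 1.35 ± 0.30 in C1qb-high cells. The order of class means was therefore Ibsp-high, remaining, Otos-high, C1qb-high, and the last 3 differed from their neighbours by less than the spread of the remaining or Otos-high cells. A size rule was used in place of a test: a difference of at least 2 with the gene detected in at least 50% of the higher cells. Of the 6 receptor genes, 2 passed it as higher in Ibsp-high than in remaining cells, Pth1r and Vdr, beside 5.26% of all genes; none passed it as lower, beside 2.98%. Genes whose every Ibsp-high value exceeded every value of the other 34 cells numbered 7, or 0.0612% of those compared, and none was lower in this way (0.0%). They were Ibsp itself, Bglap, Bglap2, Bglap3, Alpl, Dlx5 and Pth1r: a matrix protein, the osteocalcin genes, a phosphatase of mineralization, a homeobox factor of osteoblasts and the receptor.

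Within the Ibsp-high cells the level of Pth1r was set beside those of bone genes and Dio2. Over these 12 cells its Pearson correlation of log2 levels was -0.16 with Ibsp, -0.09 with Bglap2, -0.35 with Alpl and 0.54 with Dio2. These are descriptions over cells of 1 sample. Among the remaining cells the highest Pth1r levels were 290 CPM in cell 22, 236 CPM in cell 17 and 212 CPM in cell 21. Cell 22 also had 148 CPM of C1qb. Dmp1, a matrix protein of osteocytes, was in 8 of 10 remaining cells with Pth1r and 5 of 11 without, and reached 23208 CPM with Pth1r and 6047 CPM without. Without the 5 remaining cells that had at least 2 of 9 osteoblast markers at 100 CPM, and without the 2 with C1qb at 10 CPM, Pth1r stayed past the size rule.

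Vdr was at 1.20 CPM or less or at 110 CPM or more in each cell. In Ibsp-high cells it ran from 0 to 1608 CPM, with a median of 156 CPM; 7 of 12 cells had it (58.3%, interval 27.7 to 84.8%). Remaining cells had a median of 0.225 CPM, and the gene was detected in 2 of 21 (9.52%, 1.17 to 30.4%): cell 20 at 316 CPM and cell 15 at 145 CPM. The highest cell, cell 10, was Ibsp-high with 1608 CPM. Vdr was in 0 of 9 Otos-high (interval up to 33.6%) and 0 of 4 C1qb-high cells (up to 60.2%). No cell lay between 1.20 and 110 CPM. Whether the cells near 0 lacked the transcript or it was missed in the library was not tested. Vdr averaged 5.22 ± 4.26 in Ibsp-high (SD, 12 cells) and 1.01 ± 2.26 in remaining cells (SD, 21 cells) on the log2 scale, a difference of 4.21, with 0.33 in C1qb-high and 0.27 in Otos-high cells. The groups overlapped, since 5 of the 12 Ibsp-high cells were near 0. Cell 20 lacked Ibsp (27.7 CPM, the level of other cells without it) but had 704 CPM of Sp7 and 292 CPM of Runx2, the osteoblast transcription factors, and 21980 CPM of Dmp1. Sp7 and Runx2 were its only 2 of 9 osteoblast markers at 100 CPM: it had 3.72 CPM of Alpl, 2.26 CPM of Bglap, 7.44 CPM of Bglap2 and 47.7 CPM of Dlx5. Its summed chondrocyte and endothelial markers were 21722 and 569 CPM. All 9 cells with Vdr also had Pth1r, while 16 cells had Pth1r without Vdr. Of the 9, 7 were Ibsp-high, a class in which every cell had Pth1r, and 2 were remaining cells.

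Nr3c1 (gene ID 14815; chromosome 18, 39410545 to 39519421, GRCm38.p6) was found in every class. It was detected in 6 of 12 Ibsp-high, 4 of 9 Otos-high, 3 of 4 C1qb-high and 11 of 21 remaining cells. Medians were 15.1 CPM in Ibsp-high, 0.813 CPM in Otos-high, 161 CPM in C1qb-high and 76.5 CPM in remaining cells. The C1qb-high cells had 415, 150, 172 and 0 CPM (cells 43, 44, 45 and 46), within the range of the remaining cells, whose highest was 461 CPM in cell 33. On the log2 scale the means were 5.84 ± 3.95 in C1qb-high, 4.14 ± 3.70 in remaining, 3.74 ± 3.38 in Ibsp-high and 3.43 ± 3.51 in Otos-high cells (SD), and no neighbours in that order differed beyond their spread. It was the only receptor gene of the 6 detected in C1qb-high cells. Macrophages are a known glucocorticoid target.

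Nr3c2, whose product binds aldosterone and also glucocorticoids, was detected in 8 cells: 0 of 12 Ibsp-high (interval up to 26.5%), 3 of 9 Otos-high, 0 of 4 C1qb-high and 5 of 21 remaining cells. Levels were at most 1.80 CPM in Ibsp-high cells. In the Otos-high cells they were 98.0, 44.2 and 10.1 CPM in cells 27, 28 and 29, and the median over all 9 was 7.45 CPM. The highest remaining cells were cell 38 at 407 CPM, cell 21 at 145 CPM and cell 19 at 105 CPM. The detection limit matters for this gene, because 10 cells lay between 1 and 10 CPM, up to 8.17 CPM. Nr3c2 averaged 2.83 ± 2.23 in Otos-high, 2.18 ± 2.81 in remaining, 0.30 ± 0.55 in Ibsp-high and 0.21 ± 0.43 in C1qb-high cells (SD, log2 scale), and no class passed the size rule. Nr3c1 was detected in 6 of the 8 cells with Nr3c2.

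Esr1, the oestrogen receptor gene, was the least often detected, in 6 of 46 cells, and its median was 0 in every class. The cells were 1 of 12 Ibsp-high (cell 12 at 140 CPM), 3 of 9 Otos-high (cells 26, 29 and 24 at 111, 25.3 and 14.6 CPM), 0 of 4 C1qb-high and 2 of 21 remaining cells (cells 18 and 20 at 67.0 and 57.3 CPM). The Otos-high share has an exact interval of 7.49 to 70.1% and that of the remaining cells 1.17 to 30.4%. Their log2 means were 1.96 ± 2.61 in Otos-high and 0.73 ± 1.86 in remaining cells (SD, 9 and 21 cells), a difference of 1.23 that is within the spread over cells.

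Ghr was spread through the stromal classes and not detected in the C1qb-high cells. It was detected in 7 of 12 Ibsp-high, 5 of 9 Otos-high, 0 of 4 C1qb-high and 11 of 21 remaining cells. Medians were 42.6 CPM in Ibsp-high, 21.6 CPM in Otos-high, 0.302 CPM in C1qb-high and 14.6 CPM in remaining cells. The highest levels were in remaining cells, 464 CPM in cell 15, 385 CPM in cell 18 and 381 CPM in cell 22. On the log2 scale Ghr averaged 4.42 ± 3.44 in Ibsp-high, 4.09 ± 3.60 in remaining, 3.30 ± 3.17 in Otos-high and 0.33 ± 0.25 in C1qb-high cells (SD). The first 3 did not differ beyond their spread. The C1qb-high cells were -3.76 from the remaining cells and passed the size rule as lower, the only receptor gene of the 6 to do so, beside 8.8% of all genes; none passed it as higher, beside 13.2%. Pth1r was -2.70 from the remaining cells, but was detected in 47.6% of them and so fell short of the rule. Ghr levels of 10 remaining cells were below 10 CPM too, so the 2 groups overlapped. For Otos-high against remaining cells none of the 6 passed in either direction, beside 4.93% higher and 2.41% lower.

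**Figure D2:**
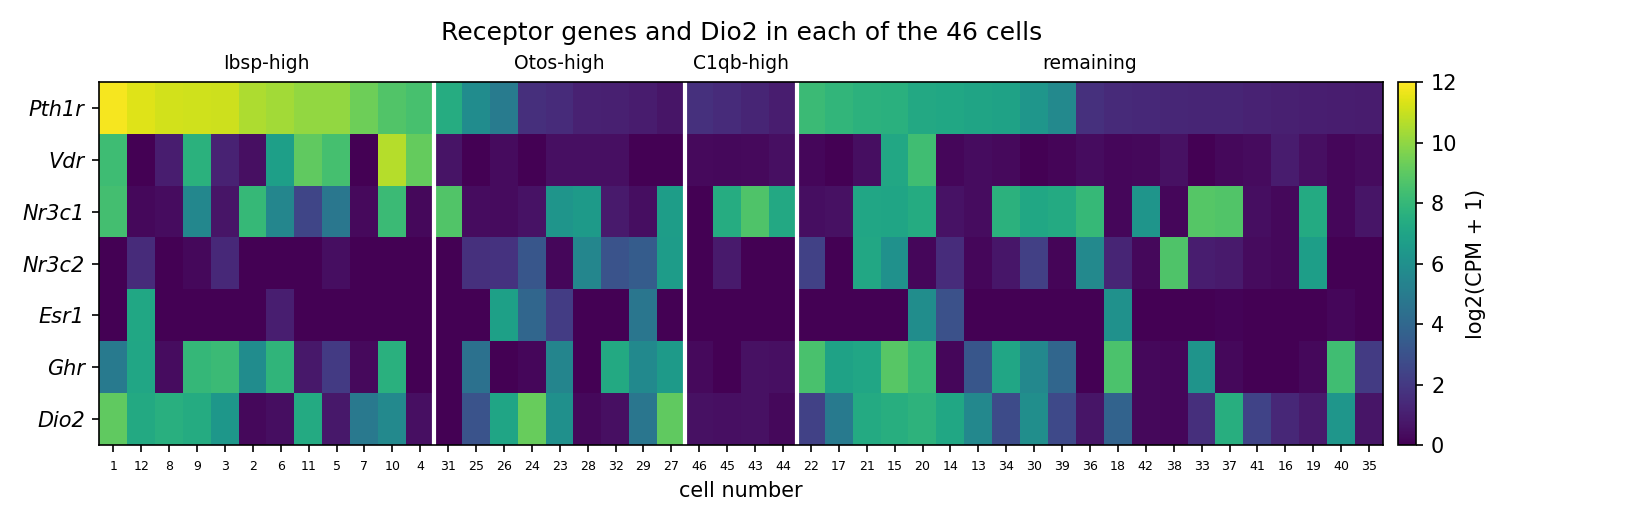
Detected receptor genes in each of the 46 cells; rows are the 6 receptor genes and Dio2, columns are cells ordered by class, and shade is log2(CPM + 1). Pth1r fills the Ibsp-high block, all 9 cells with Vdr also have Pth1r, and the C1qb-high block holds only Nr3c1.

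Most cells had more than 1 of the 6 receptor genes. None was detected in 4 cells, 1 in 13 cells, 2 in 14 cells, 3 in 8 cells, 4 in 5 cells and 5 in 2 cells. The median number was 3 in Ibsp-high, 2 in Otos-high, 1 in C1qb-high and 2 in remaining cells. The combination of Pth1r, Vdr, Nr3c1 and Ghr occurred in 4 of 12 Ibsp-high cells, cells 1, 6, 9 and 10. The 2 cells with 5 receptor genes were cells 15 and 20, both remaining cells with Pth1r, Vdr, Nr3c1 and Ghr, plus Nr3c2 in cell 15 and Esr1 in cell 20. Across pairs, Pth1r and Ghr were found together in 16 cells, Nr3c1 and Ghr in 14, Pth1r and Nr3c1 in 13, and Pth1r and Nr3c2 in 2.

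**Figure D3:**
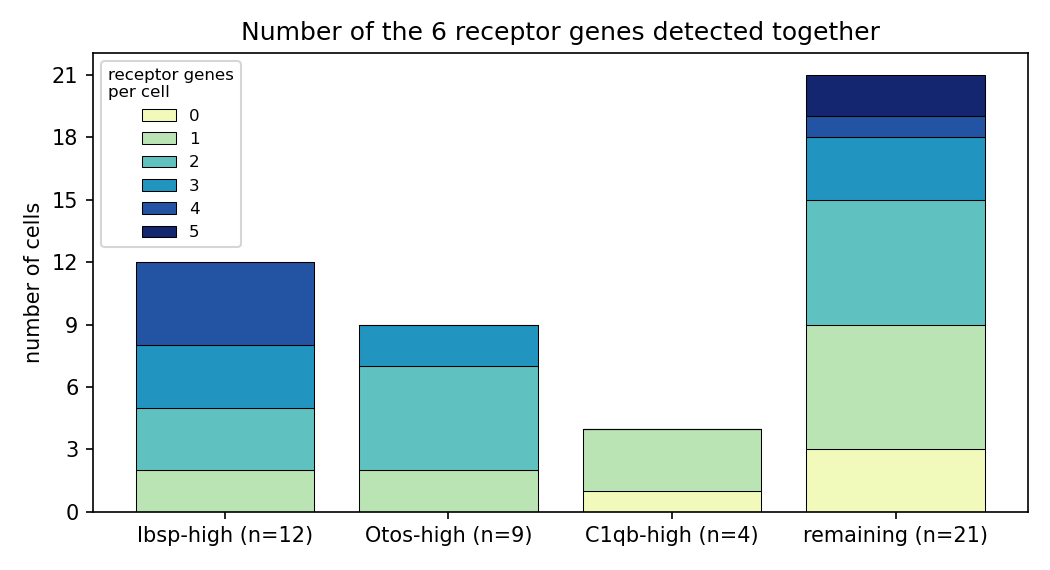
Number of cells with 0 to 5 of the 6 receptor genes detected at 10 CPM or more, for each marker class. Of the Ibsp-high cells, 4 of 12 had 4 of the genes, no Otos-high cell had more than 3, and no C1qb-high cell had more than 1.

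Dio2 was detected in 23 of 46 cells, although all were picked as fluorescent: 8 of 12 Ibsp-high, 5 of 9 Otos-high, 0 of 4 C1qb-high and 10 of 21 remaining cells. Dio2 ran from 0.194 to 0.465 CPM in the C1qb-high cells. Pth1r was detected in 16 of 23 cells with Dio2 and 9 of 23 without it. Ghr was detected in 15 of 23 cells with Dio2 and 8 of 23 without. Esr1 was detected in 6 of 23 cells with Dio2 (26.1%, exact interval 10.2 to 48.4%) and 0 of 23 without (interval up to 14.8%), and in those 6 cells Dio2 was 13.1 to 600 CPM. Vdr was detected in 6 of 23 with Dio2 and 3 of 23 without, and Nr3c2 in 4 of 23 in both. Nr3c1 was in 10 of 23 cells with Dio2 and 14 of 23 without, and this direction turned with the limit: at 100 CPM it was in 6 of 13 with Dio2 and 12 of 33 without. The Pth1r counts were close at a limit of 1 CPM, 27 of 30 with Dio2 and 14 of 16 without. That limit lies within the 0.620 to 2.16 CPM of the cells counted as without Pth1r. At 1% of the gene's mean and at least 1 CPM, Pth1r was in 20 of 30 with Dio2 and 5 of 16 without. At 10 CPM the intervals of the shares overlap for all 6 genes.

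**Figure D4:**
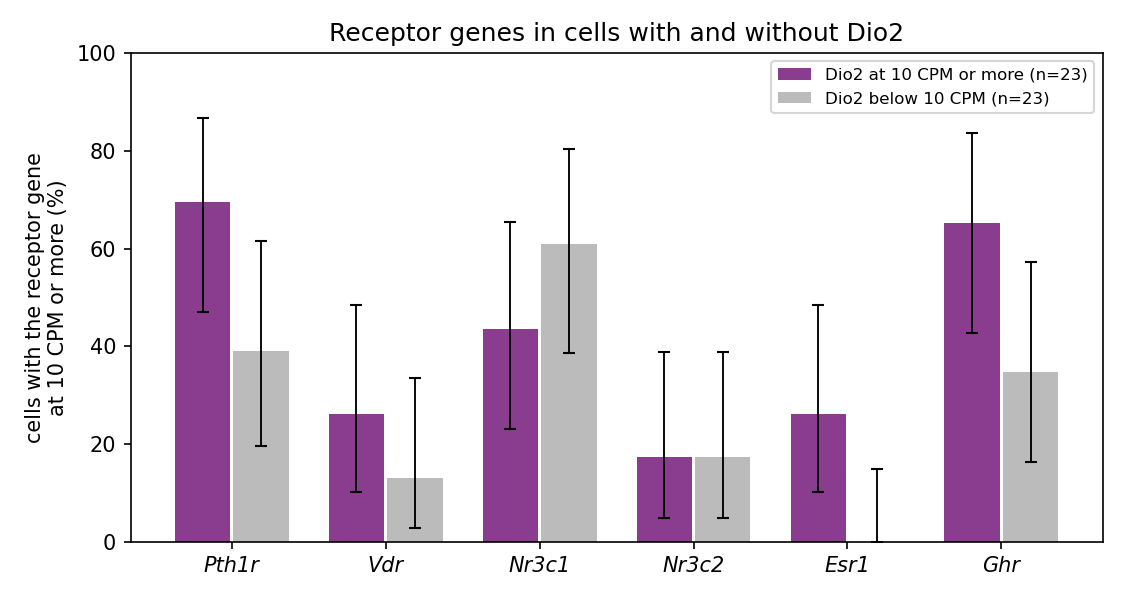
Percentage of cells in which each receptor gene was detected, in the 23 cells with Dio2 (left bar) and the 23 cells without (right bar); error bars are exact 95% binomial intervals, which cover counting error only. Shares with Dio2 are higher for Pth1r, Vdr, Esr1 and Ghr and lower for Nr3c1 at this limit, and all pairs of intervals overlap.

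Genes in general were also a little more often detected in cells with Dio2: the median difference in share over 11446 genes was 4.35 percentage points. Cells with Dio2 had a median of 5335 genes at 1 CPM or more, against 4819 in cells without it. Their median of reads in listed genes was 4971699, against 4576077. With every cell thinned to the same number of reads, the counts with and without Dio2 were the same for all 6 receptor genes. Pth1r and Ghr differed by 30.4 points each, as much as or more than which 2.53% and 2.21% of all genes did, and Esr1 by 26.1 points (4.78% of genes). The C1qb-high cells were all without Dio2. Leaving them out, Pth1r was in 16 of 23 with Dio2 against 9 of 19 without, Ghr in 15 of 23 against 8 of 19, and Esr1 in 6 of 23 against 0 of 19. The shares of all genes that differed as much became 6.54%, 5.84% and 3.58%. On the log2 scale over all cells, C1qb-high cells included, Pth1r was 2.54 and Ghr 2.39 higher in cells with Dio2. These were the 2 receptor genes of 6 that passed the size rule as higher, beside 1.22% of genes. None passed as lower, beside 0.253%. The C1qb-high cells averaged 1.35 for Pth1r and 0.33 for Ghr, below the 3.94 and 2.50 of all cells without Dio2. They therefore widened both differences, and whether either gene passes without them was not tested. With a pseudocount of 10 in place of 1, the differences over all cells fell below the limit of 2. They were 1.87 for Pth1r and 1.42 for Ghr. In all, 140 genes were higher and 29 lower on the CPM scale, and 85 higher and 57 lower with median-of-ratios scaling, which moved the all-gene median from 0.17 to 0.06.

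The classes did not all show the Pth1r difference. Among remaining cells Pth1r was in 7 of 10 with Dio2 against 3 of 11 without, while in Ibsp-high cells all 8 with and all 4 without Dio2 had it. In Otos-high cells it was in 1 of 5 with Dio2 against 2 of 4 without. Ghr was in 7 of 10 against 4 of 11 remaining cells, in 5 of 8 against 2 of 4 Ibsp-high cells and in 3 of 5 against 2 of 4 Otos-high cells. Esr1 was in 2 of 10 against 0 of 11 remaining cells and in 3 of 5 against 0 of 4 Otos-high cells. Whether these class differences differ from each other was not tested.

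Other genes of each hormone's pathway were counted from lists. For parathyroid hormone, the ligand genes Pth, Pthlh and Pth2 had no read in any cell. Gnas, which codes for the Gs alpha subunit that couples to the receptor, was detected in 25 of 25 cells with Pth1r (median 1335 CPM) and in 21 of 21 without (median 1000 CPM). Of 21 signalling and target genes compared between Ibsp-high and remaining cells, 2 were higher, Pde4d, a cyclic AMP phosphodiesterase (2.71), and Phex, an endopeptidase of osteocytes (2.41), and none was lower. Their median difference was 0.50, against 0.09 over all genes. These compare with 5.26% higher and 2.98% lower of all genes. In Otos-high cells 1 of 21 was higher and 4 lower (4.93% and 2.41% of all genes), and in C1qb-high cells 7 and 4 (13.2% and 8.8%). In cells with Dio2 1 was higher and none lower (1.22% and 0.253%). The differences that were greatest in size lay in C1qb-high cells: Arrb2, which codes for a beta-arrestin (6.94), Ctgf, a secreted matrix-associated protein (-6.15), Pde4b, a cyclic AMP phosphodiesterase (6.04), and the immediate early genes Nr4a1 (5.58) and Fos (5.41). Tnfsf11, the osteoclast-recruiting ligand RANKL, was in 2 cells, both with Pth1r: cell 10 at 318 CPM and cell 22 at 167 CPM. Mmp13, a collagenase, was in cell 11 only, at 1566 CPM, and Sost, the osteocyte inhibitor of Wnt signalling, had no read.

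For vitamin D, Cyp27b1, which makes the active hormone, Gc, its carrier, Rxrg, and the target genes Trpv6, S100g, Fgf23 and Slc34a2 had no read. Cyp24a1, which degrades the hormone and is a standard target of VDR, was detected in 2 of 9 cells with Vdr and 0 of 37 without, at 287 CPM in cell 6 and 109 CPM in cell 4, both Ibsp-high. Of the partners with which VDR binds DNA, Rxra was in 2 of 9 cells with Vdr and 11 of 37 without, and Rxrb in 3 of 9 and 16 of 37. Of 16 genes compared, 5 were higher in Ibsp-high cells and 1 lower, against 5.26% and 2.98% of all genes. The higher ones included the osteocalcin genes Bglap2 (8.15) and Bglap (7.70), which also count as osteoblast markers, and Cdkn1a, a cell cycle inhibitor (5.61). The lower one was Enpp1, which makes pyrophosphate (-2.71). In Otos-high cells 1 was higher and none lower (4.93% and 2.41% of all genes), in C1qb-high cells 4 were higher and 3 lower (13.2% and 8.8%), and between cells with and without Dio2 none passed (1.22% and 0.253%).

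For the corticosteroids, the list had a median difference of -0.54 in Ibsp-high cells, against 0.09 over all genes. The list median was also below that of all genes in Otos-high cells (-0.56 against -0.05), and above it in C1qb-high cells (-0.03 against -0.36). In Ibsp-high cells no list gene was higher and 4 of 21 were lower (5.26% and 2.98% of all genes). They were Tsc22d3 (GILZ; -2.46) and Sgk1 (-2.74), both glucocorticoid-induced, Dusp1 (-2.01), a phosphatase that is also an immediate early gene, and Sult1a1 (-4.06). Sgk1, a kinase that mineralocorticoids also induce, was detected in 7 of 8 cells with Nr3c2 and 19 of 38 without. The cells without Nr3c2 include all 12 Ibsp-high cells, of which 3 had Sgk1. Sgk1 was in 7 of 9 Otos-high, 4 of 4 C1qb-high and 12 of 21 remaining cells. Whether Sgk1 goes with Nr3c2 within a class was not tested. The C1qb-high cells had 5 genes higher, among them Dusp1 (4.34) and Sgk1 (3.84), and 3 lower, among them Klf9 (-5.65), of 21 compared (13.2% and 8.8% of all genes). Hsd11b1, which regenerates active glucocorticoid inside the cell, was 4.57 higher in Otos-high than in remaining cells, where Stip1, a cochaperone, was also higher (2.17) and Cebpd, a transcription factor, lower (-2.86); 4.93% and 2.41% of all genes were higher and lower there. Hsd11b1 was detected in 5 of 9 Otos-high cells, at 109 to 4479 CPM, and in 2 of 21 remaining, 0 of 12 Ibsp-high and 0 of 4 C1qb-high cells. Of the 7 cells with Hsd11b1, Nr3c1 was detected in 3. Hsd11b2, which inactivates glucocorticoid and so protects the mineralocorticoid receptor, was in cells 21 and 30 only, and Scnn1a, an epithelial sodium channel subunit, Cyp11b2 (aldosterone synthase) and Serpina6 (a corticosteroid carrier) had no read.

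For oestrogen, 8 of 17 list genes had no read, among them Cyp19a1 (aromatase) and the target genes Greb1, Pgr and Tff1. Of the 9 compared, none passed the size rule in Ibsp-high cells, beside 5.26% higher and 2.98% lower of all genes. None passed in cells with Dio2 either, beside 1.22% and 0.253%. In Otos-high cells 2 were lower and none higher (2.41% and 4.93% of all genes). In C1qb-high cells 4 were higher and 1 lower (13.2% and 8.8%). The 4 higher were Ctsd (3.32), Nrip1 (2.96), Ncoa3 (2.86) and Ncoa1 (2.61), of which Ncoa1 and Ncoa3 are also among the 4 higher of the vitamin D list, and the lower was Igfbp4 (-5.09). Esr2, the other nuclear oestrogen receptor gene, was in cell 23 only, at 45.4 CPM. Gper1, a membrane receptor proposed to bind oestrogen, was in 16 cells: 13 of 23 with Dio2 and 3 of 23 without. On the log2 scale it was 3.51 higher in cells with Dio2 and passed the size rule, beside 1.22% of all genes. It was 6 of 12 in Ibsp-high, 1 of 9 in Otos-high, 0 of 4 in C1qb-high and 9 of 21 in remaining cells.

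For growth hormone, Gh and Ghsr, the ghrelin receptor gene, had no read. Socs2, a feedback inhibitor induced by the receptor, was in 19 of 23 cells with Ghr and 14 of 23 without, and Stat5b, its transcription factor, in 15 of 23 and 10 of 23. Igf1, the growth factor that GHR induces in liver, was in 11 of 23 and 12 of 23. The cells without Ghr include all 4 C1qb-high cells, of which 0 had Socs2, 1 had Stat5b and 3 had Igf1. These counts therefore mix classes. In C1qb-high cells, where Ghr was not detected, Socs2 was -5.09, Igfbp5 -5.77, Stat5b -2.46 and Grb10 -4.01 from the remaining cells, the 4 lower of 16 compared, and none was higher (8.8% and 13.2% of all genes). In Ibsp-high cells 1 was lower, Igf1 (-2.91), and 2 were higher, Sh2b1, an adaptor of JAK2 (3.14), and Socs1, a feedback inhibitor (2.10), against 2.98% lower and 5.26% higher of all genes. In Otos-high cells 3 were lower, Igf1 (-4.29), Igfbp5 (-5.24) and Grb10 (-3.71), and none higher (2.41% and 4.93%).

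Of 30 other hormone receptor genes, 11 had no read in any cell, including Pth2r, Calcr (calcitonin receptor), Casr (calcium-sensing receptor) and Tshr (thyrotropin receptor). Of the 15 compared, 1 was higher in Ibsp-high cells and none lower, beside 5.26% and 2.98% of all genes. This was Rarg, a retinoic acid receptor gene, which was 2.90 higher and was detected in 11 of 12 Ibsp-high cells, against 9 of 21 remaining cells. Prlr, the prolactin receptor gene, was in cell 30 only.

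Genes whose levels were most like each receptor's were ranked by Pearson r of log2(CPM + 1) over the 46 cells, among 9565 genes detected in at least 5 cells. For Pth1r they were Dlx5 (0.75), Ibsp (0.74), Sgms2 (0.73), Kcnma1 (0.73) and Bglap (0.72). For Vdr they were Fam78b (0.67), Gucy1a3 (0.66), Pcdh18 (0.65) and Nkx3-2 (0.65). For Nr3c2 and Ghr the nearest were Afap1l1 (0.65) and Auts2 (0.58), and for Nr3c1 and Esr1 Taf13 (0.58) and Mettl15 (0.56). Among the receptors and Dio2 themselves, the highest values were 0.54 for Pth1r with Vdr, 0.37 for Esr1 with Dio2, 0.35 for Pth1r with Dio2 and 0.34 for Ghr with Dio2. All points share 1 source and the same read depth range, and the best of many genes is high by selection.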

How the data were processed

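The deposited table holds counts per 1000000 reads (CPM) for 29871 genes in 46 single cochlear cells. Per the labels' protocols, libraries were made with SMART-Seq v4 and ThruPLEX kits. The submitters' processing notes name bcl2fastq 2, STAR 2.7.3a and the genome GRCm38 (mm10); no source used here names the gene counter. The authors' CPM values came out as whole reads in 100% of positive values (tolerance 0.01 read). This gave 2522853 to 10350249 reads in listed genes per cell. PCR reads are not independent molecules, so the exact 95% intervals cover counting error only.

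Python 3.11.15 with pandas 2.3.3, numpy 2.4.6 and scipy 1.17.1 was used. Levels were taken as log2(CPM + 1), with 10 CPM as detection limit. A cell below that limit is counted as without the gene. A transcript missed in library making cannot be told apart from an absent one. Because the labels give 1 group and no animal, cells are 1 sample: differences have sizes and spreads over cells, and no count test was run. The comparison was also run on simulated counts, for Ibsp-high against remaining cells only, with changes planted in genes of higher mean level. Those counts did not switch on and off by cell as the receptor genes did. The run therefore does not show how the size rule behaves for such genes. The receptor genes and the lists were chosen with earlier results of these data known. The rule for naming list genes was up to 4 of each list with the largest class differences, and those with no read; not all of these are named, and other list genes were chosen after their values were seen. Of 149 distinct list genes, 148 had a row. Gene positions and promoters are RefSeq, GRCm38.p6; exon overlaps are from GENCODE M21.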

Additional observations from a re-analysis of the deposited data

How the results depend on the processing

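No paired analysis was possible because the labels give 1 group and no replicate numbers that cells of different groups share. No replicate could be left out, since the cells are 1 sample. All 252 alternative values of the differences in receptor gene levels moved by less than the spread over cells. That spread was wide, an SD of 1.74 to 3.82 on the log2 scale, so staying within it says little. The alternative without cells past more than 1 limit left out none and repeats the main values. With a pseudocount of 10 the differences between cells with and without Dio2 were 1.87 for Pth1r and 1.42 for Ghr, below the size of 2. The difference of Nr3c2 between cells with and without Dio2, near 0, turned negative under some alternatives (-0.08 with a pseudocount of 10), and that of Esr1 in Ibsp-high against remaining cells, also near 0, kept its sign in 9 of 11 (-0.18 to 0.09). The alternatives without the remaining cells with osteoblast markers, without those with C1qb and without the lowest Otos-high cell were chosen after seeing the data.

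Counts over all genes depended on the pseudocount. With 0.1, genes higher in Ibsp-high cells numbered 1033, higher and lower in Otos-high cells 901 and 427, and higher and lower in cells with Dio2 418 and 96. With 10, the higher and lower counts were 157 and 128 (Ibsp-high), 143 and 93 (Otos-high), 570 and 532 (C1qb-high) and 7 and 1 (Dio2). Median-of-ratios scaling gave 85 and 57 for Dio2, and moved the all-gene median of the C1qb-high difference from -0.36 to 0.02.

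Detection counts depended on the limit. At 1 CPM, Pth1r was in 41 cells and Nr3c2 in 18; at 100 CPM, Nr3c2 was in 3, Esr1 in 2 and Ghr in 14; at 1% of the gene's mean, Nr3c2 was in 18. The limit also sets which cells count as having Dio2. At 1 CPM, Pth1r was in 27 of 30 cells with Dio2 against 14 of 16 without, and Nr3c2 in 13 of 30 against 5 of 16. At 1% of the mean, Pth1r was in 20 of 30 against 5 of 16, and Nr3c2 was as at 1 CPM. At 100 CPM, with 13 cells with Dio2 and 33 without, Pth1r was in 9 against 12, Nr3c1 in 6 against 12, Nr3c2 in 1 against 2, Esr1 in 2 against 0 and Ghr in 5 against 9. Thinning every cell to the same number of reads left the counts of detected and co-detected cells as they were. Detections of Pth1r at 1 CPM rest on few reads per cell.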
